A study of Mus musculus with 7 samples.

Results

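The miR-135 family of microRNAs (miRNAs), short RNAs that silence messenger RNAs by pairing with them, was followed in small RNA sequencing of mouse colorectum. Its members were the table entries whose names begin with miR-135a or miR-135b, 5 of 1915 entries: mmu-miR-135a-5p, mmu-miR-135b-5p (mmu, mouse, is left out below), and the opposite arms miR-135a-1-3p, miR-135a-2-3p and miR-135b-3p. The 3 CRC mice (M4, M5 and M6) were female wild-type C57BL/6 mice that had been injected at 7 weeks of age with 10 mg per kg of azoxymethane (AOM), which causes colon tumours. After 5 days they drank 2.5% dextran sodium sulfate (DSS), an agent that damages the colon epithelium, for 7 days, and then water in a 14-day phase. Their labels give stage T1 and day 17. The 3 healthy mice (M1, M2 and M3) were of the same strain, genotype, sex and age and had received 0.9% saline. No group had AOM alone or DSS alone, so carcinogen, injury and tumour cannot be told apart, and the labels do not say which part of the colorectum was taken. M1 has 2 labelled libraries but 1 column in the table, which was used as 1 mouse.

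miR-135 miRNAs are known for restraining APC, the scaffold that keeps the Wnt signal transducer beta-catenin low and whose loss starts most colorectal tumours; this repression was described in human cells. miR-135b is also known as a miRNA that is high in human and mouse colorectal tumours. A miRNA is cut from a hairpin, one arm of which usually enters the silencing complex and pairs with its targets mainly through its seed, bases 2 to 8.

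The 5 mature sequences, as the deposited table gives them, show which members can share targets and which could be mistaken for each other in counting. They are written 5′ to 3′ with the seed in capitals.

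miR-135b-5p: tATGGCTTttcattcctatgtga

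miR-135a-5p: tATGGCTTtttattcctatgtga

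miR-135b-3p: aTGTAGGGctaaaagccatggg

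miR-135a-1-3p: tATAGGGAttggagccgtggcg

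miR-135a-2-3p: tGTAGGGAtggaagccatgaa

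Both 5p members share the seed ATGGCTT and differ by 1 substitution over 23 bases, T11C counted from the 5′ end of miR-135a-5p (miR-135a-5p base first). No other entry of the table has that seed. Each 3p member has a seed that no other entry has. The sources used here do not say how reads that match both 5p members were assigned, so their sum is also reported.

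The family comes from 3 hairpins, which RefSeq and GENCODE place at the same positions of GRCm38. Their RefSeq sequences (build GRCm38.p6) are shown with both mature arms in capitals, since miR-135a-5p is encoded by 2 of them and cannot be assigned to either.

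Mir135b: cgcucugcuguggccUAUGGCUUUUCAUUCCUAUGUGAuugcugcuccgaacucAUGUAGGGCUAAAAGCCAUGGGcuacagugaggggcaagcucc

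Mir135a-1: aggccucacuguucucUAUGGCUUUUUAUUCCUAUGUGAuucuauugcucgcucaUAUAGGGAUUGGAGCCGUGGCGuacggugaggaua

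Mir135a-2: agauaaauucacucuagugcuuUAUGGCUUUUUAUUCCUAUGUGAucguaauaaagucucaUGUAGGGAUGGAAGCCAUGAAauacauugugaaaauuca

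Mir135b lies at chr1:132198088-132198184 on the plus strand, in an intron of the protein-coding Lemd1 and of the overlapping AC124108.1. Mir135a-1 lies at chr9:106154124-106154213 on the plus strand, in an intron of the noncoding D030055H07Rik and opposite an exon of Glyctk, the gene of a glycerate kinase. Mir135a-2 lies at chr10:92072086-92072185 on the minus strand, in an intron of the long noncoding RNA Rmst.

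Complements of the seed were looked up on the sense strand of the longest annotated 3′ UTR of protein-coding genes (GENCODE M21). The letters AAGCCATA, the complement of the seed followed by A, stood in 620 of 20955 such 3′ UTRs (2.96%). Of 9 genes that the literature on other systems names as miR-135 targets, 5 held them. These were Smad5 (a BMP signal transducer), Jak2 (a cytokine receptor kinase), Hoxa10 (a homeobox factor), Mtss1 (an actin regulator) and Hif1an (the hydroxylase that inhibits HIF1). Their 3′ UTRs ran from 1232 bases (Jak2) to 5116 bases (Hif1an), all longer than the median of the 3′ UTRs searched. Length was not matched, so the counts among the 9 genes cannot be set against the shares of all 3′ UTRs. Whether the literature picked these genes by such a match was not checked. The matched stretch is shown for each of the 5 genes, with the match in capitals, because these are the letters through which both 5p members would pair.

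Smad5: ttgtgctctcaAAGCCATAac

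Jak2: aattgaagcatAAGCCATAca

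Hoxa10: tctgggggaaaAAGCCATAtc

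Mtss1: cgcatctgaatAAGCCATAct

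Hif1an: actacatgcttAAGCCATAca

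Tgfbr2, Runx2 and Slc6a4 held only the shorter AGCCATA, which overlaps the motif above and stood in 8.47% of all 3′ UTRs. Apc, whose longest annotated mouse 3′ UTR is 3971 bases long, held neither of these nor the 6 letters AGCCAT, which stood in 33.6% of all 3′ UTRs. These are matches of letters only; no messenger RNA was measured, and pairing outside the 3′ UTR or without these letters was not looked for.

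Total miRNA reads were 3206127 to 6601899 in the CRC mice and 8222508 to 15280434 in the healthy mice. The healthy profile M3 stood apart from the other healthy profiles: across 878 miRNAs its correlation of log2 CPM (counts scaled to the library total) was highest with the CRC profile M4 (0.967), against 0.946 with M1 and 0.943 with M2. This is a correlation across miRNAs, which are not independent replicates. By the same measure the CRC profile M4 stood apart from its group too. It lay closer to M1 (0.951) and M2 (0.947) than to M5 (0.924) and M6 (0.926). M3 in turn lay closer to M1 and M2 than to M5 (0.915) and M6 (0.916). Levels below are CPM on TMM-scaled totals, and the levels, the sum and the ratio of the family are also given without M3.

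miR-135b-5p was the abundant member in all 3 CRC mice and in 1 healthy mouse, and was scarce in the other healthy mice. Its level was 194 CPM in M4, 314 in M5 and 169 in M6 among CRC mice, against 11.6 CPM in M1, 11.8 in M2 and 267 in M3 among healthy mice. M3 lay above M4 and M6, so the groups overlapped, and M3 had 22.6 times the level of M2, the next healthy mouse. By abundance miR-135b-5p ranked 130 to 165 among the 1915 entries in the CRC mice, against 148 in M3, 428 in M2 and 441 in M1. In bulk tissue, fewer cells that make a miRNA and less of it per cell cannot be told apart.

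The group means of miR-135b-5p were 226 ± 77.5 CPM in CRC mice and 96.9 ± 147 CPM in healthy mice (SD, n = 3 each). Its log2 fold change was 1.22 (SE 1.06) and did not pass edgeR's quasi-likelihood test (adjusted p = 0.517). In that test 20 of 878 miRNAs (2.28%) passed an adjusted p of 0.05. Without M3 the log2 fold change was 4.17 (SE 0.47) and passed (adjusted p = 0.0150, edgeR), in a fit that called 63 of 1068 miRNAs (5.9%). Without both M3 and M4, which leaves M5 and M6 against M1 and M2, it was 4.06 (SE 0.32, adjusted p = 4.52e-09, edgeR). That fit called 53.2% of the miRNAs tested. M3 and M4 were the profiles of opposite groups most like each other, so leaving out both favours a separation of the groups. Leaving out M3 alone, the healthy mouse with the high level, favours a separation too. The adjusted p of neither fit is therefore support for a difference.

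miR-135a-5p was even across the mice. It had 32.1 CPM in M4, 32.2 in M5 and 26.6 in M6, against 31.3 CPM in M1, 19.5 in M2 and 38.4 in M3. The lowest and the highest mouse were both healthy. The means were 30.3 ± 3.23 CPM in CRC mice and 29.7 ± 9.58 CPM in healthy mice (SD, n = 3 each), and the log2 fold change was 0.03 (SE 0.43, adjusted p = 0.981, edgeR). The standard error allows a change of either sign, and the value was 0.18 without M3, where it was not called either.

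**Figure D1:**
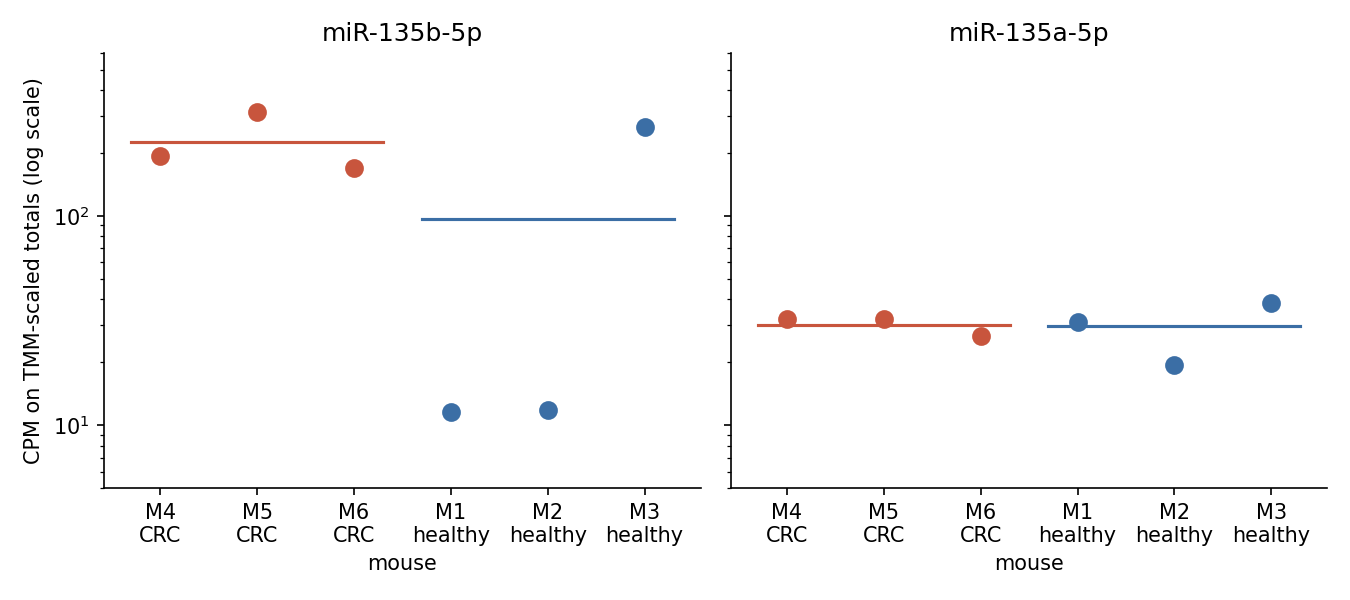
Levels of miR-135b-5p (left) and miR-135a-5p (right) in each mouse, in CPM on TMM-scaled totals on a log axis; points are mice (CRC red, healthy blue) and lines are group means. miR-135b-5p lay at 169 to 314 CPM in the CRC mice and at 11.6, 11.8 and 267 CPM in the healthy mice, while miR-135a-5p stayed between 19.5 and 38.4 CPM.

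The balance between the paralogues, a ratio within each profile that no scaling changes, separated M1 and M2 from the other mice. miR-135b-5p made up 85.8% of the 5p reads of the family in M4 (95% exact binomial interval 83.8 to 87.6), 90.7% in M5 (89.3 to 92.0) and 86.4% in M6 (84.0 to 88.6) among CRC mice. Among healthy mice it made up 27.1% in M1 (22.7 to 31.8), 37.8% in M2 (32.0 to 43.8) and 87.4% in M3 (86.1 to 88.6). These intervals cover counting error only. M1 and M2 were the mice with more miR-135a-5p than miR-135b-5p reads, and M3 lay within the range of the CRC mice.

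The mean log2 ratio of miR-135b-5p to miR-135a-5p was 2.85 ± 0.38 in CRC mice and 0.22 ± 2.26 in healthy mice (SD, n = 3 each). The difference of 2.63 did not pass a two-sided exact permutation test (p = 0.3), and 3 mice against 3 cannot go below 0.1. Without M3 the difference was 3.92.

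**Figure D2:**
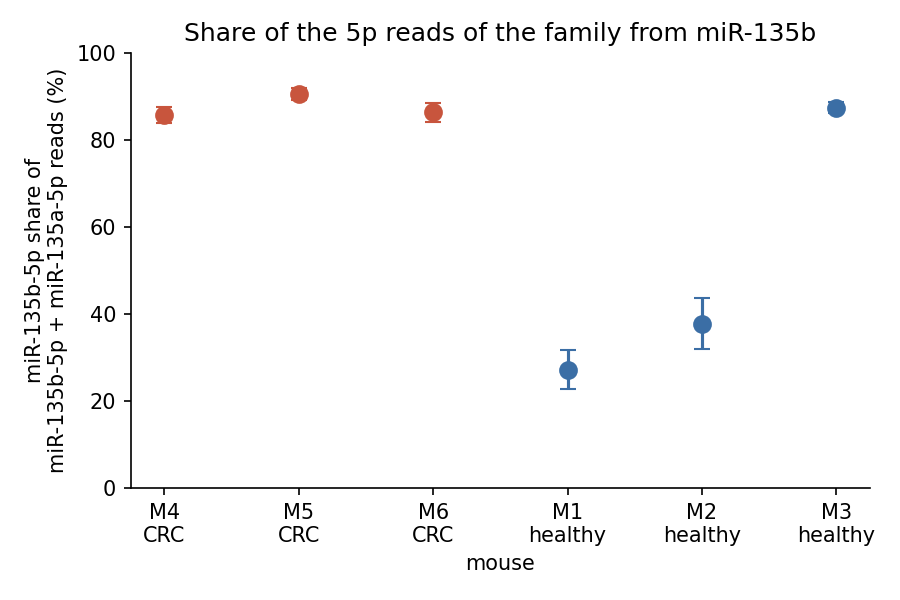
Share of miR-135b-5p among the reads of both 5p members in each mouse, in percent, with 95% exact binomial intervals for counting error (CRC red, healthy blue). The CRC mice and the healthy mouse M3 lay at 85.8 to 90.7%, and the healthy mice M1 and M2 at 27.1 and 37.8%.

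Summed over both 5p members, which carry the same seed, the family had 225 CPM in M4, 348 in M5 and 195 in M6, against 42.9 CPM in M1, 31.2 in M2 and 305 in M3. The sum followed miR-135b-5p, with M3 again inside the CRC range. Its log2 fold change was 1.02 (SE 0.79, adjusted p = 0.465, edgeR), and 2.70 without M3 (SE 0.43, adjusted p = 0.0394, edgeR). M3 was the healthy mouse with the highest sum, so the adjusted p without it is no support for a difference either. As a share of all miRNA reads the sum averaged 0.0346 ± 0.0169% in CRC mice and 0.0129 ± 0.0181% in healthy mice (SD, n = 3 each; two-sided exact permutation p = 0.3).

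The 3p arms, which usually are discarded after cutting, were rare. miR-135b-3p had 8 reads in M4, 6 in M5 and 6 in M6 among CRC mice, against 0 in M1, 0 in M2 and 21 in M3 among healthy mice. The mice without a read were those with about 100 reads of miR-135b-5p (104 in M1 and 105 in M2). A count of 0 allows up to 0.242 CPM of the library total in M1 and 0.196 CPM in M2. Over all mice the 3p arm made up 0.639% of the reads of Mir135b (95% exact interval 0.459 to 0.865), so at the depth of M1 and M2, where 0 reads allow shares up to 2.88% and 2.86%, a difference in arm use was not detectable. The log2 fold change of miR-135b-3p was 0.64 (SE 1.25, adjusted p = 0.785, edgeR).

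miR-135a-2-3p had 29 reads in all and miR-135a-1-3p had 5, and neither passed the filter on low counts. Together they made up 2.54% of the reads of the miR-135a hairpins (95% exact interval 1.76 to 3.53). miR-135a-2-3p had 0, 5 and 3 reads in M4, M5 and M6, against 7, 6 and 8 reads in M1, M2 and M3. miR-135a-1-3p had at most 3 reads in any mouse. No 3p member reached the mean of 10 counts set for a test of arm ratios, so none was tested. Thus 3 of the 5 members were tested for a difference between the groups, and 0 passed in edgeR, DESeq2 or limma-voom. DESeq2 called 111 of all 878 miRNAs (12.6%) and limma-voom 0 of 878 (0%), so the result of limma-voom does not bear on the members. At an unadjusted p under 0.05 edgeR and DESeq2 held 0 of them and limma-voom 1, miR-135b-5p, for which DESeq2 gave no p-value.

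The direction of miR-135b-5p depended on how M3 and M4 were treated. With neighbouring mice as blocks, a grouping known from the profiles and not from the labels, the difference is that of M4 against M3, 1 mouse against 1. It was then -0.47 (SE 0.39, adjusted p = 0.547, edgeR), in a fit that called 3.08% of the miRNAs tested. In the other settings with all mice the log2 fold change lay above 0, from 1.13 without a filter to 2.70 in limma-voom, where the adjusted p was 0.184. DESeq2 gave 1.24 and no p-value for this miRNA.

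**Figure D3:**
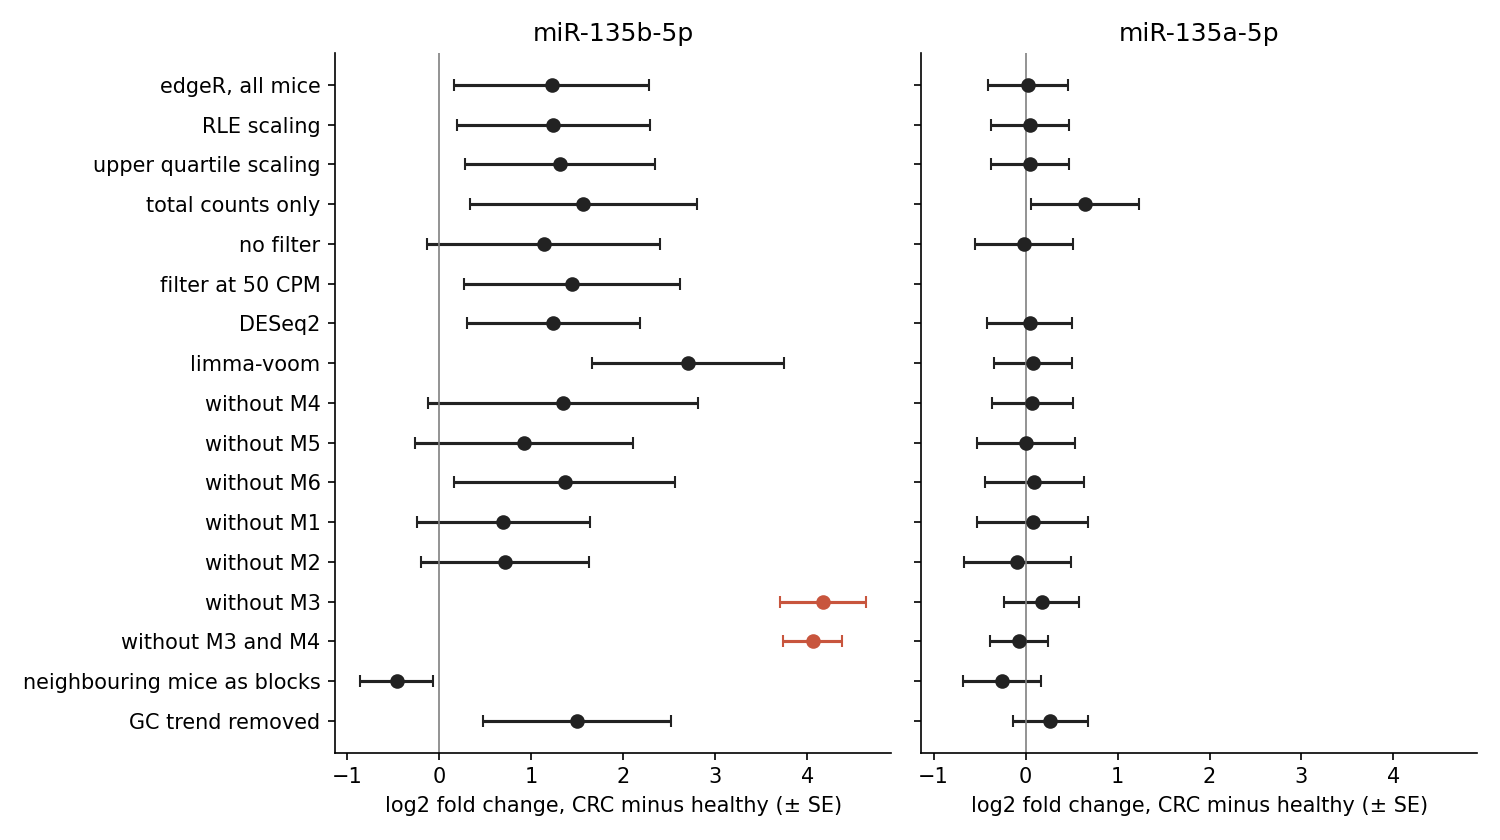
Log2 fold change, CRC over healthy (± SE), of miR-135b-5p (left) and miR-135a-5p (right) under each processing setting, with values past an adjusted p of 0.05 in red. miR-135b-5p passed without M3 (4.17) and without M3 and M4 (4.06) and was below 0 with neighbouring mice as blocks (-0.47). The SE drawn for neighbouring mice as blocks comes from mice of the same group. miR-135a-5p passed in none of the settings drawn.

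Markers of the tissue's cell types were set beside miR-135b-5p as shares of all miRNA reads. All 9 epithelium markers were read in every mouse, and their sum ran from 13.7 to 17.7% in CRC mice and from 12.4 to 14.3% in healthy mice. On the TMM scale 8 of the 9 had a negative log2 fold change (median -0.49), and they summed to 166356 CPM in M4, 88426 in M5 and 120525 in M6, against 197836 CPM in M1, 219812 in M2 and 112463 in M3. In edgeR 0 of the 9 passed, with 0 at an unadjusted p under 0.05. Relative to these epithelial reads miR-135b-5p kept its pattern: 0.116% in M4, 0.355% in M5 and 0.140% in M6, against 0.00588% in M1, 0.00537% in M2 and 0.238% in M3. The order of the mice was thus the same as on the share of all reads.

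Summed as shares, the markers of other cell types did not all move with miR-135b-5p. The 4 smooth muscle markers, none at 0, summed to 20.7% in M4, 7.04% in M5 and 6.52% in M6, against 41.4% in M1, 47.9% in M2 and 20.98% in M3. The 5 blood cell markers, none at 0, summed to 0.794% in M4, 1.30% in M5 and 1.32% in M6, against 0.298% in M1, 0.200% in M2 and 1.74% in M3. As sums, smooth muscle was highest and blood lowest in the mice with the least miR-135b-5p, M1 and M2, also on the TMM scale. On the TMM scale the sums of epithelium, nerve and fibroblast markers were highest in M1 and M2 too, so this was not particular to smooth muscle. Single smooth muscle and blood markers did not all follow their sums. On that scale miR-150-5p had 1171 CPM in M1 against 610 in M5 and 866 in M6, and miR-133a-3p was highest in M3 (1019 CPM). In M3 the single marker miR-142a-3p gave 9945 of the 15720 CPM of the blood sum. In edgeR 0 of the smooth muscle and blood markers passed. At an unadjusted p under 0.05 were 4 smooth muscle markers and 1 blood marker, against 23.2% of all miRNAs. DESeq2 called 3 and 0, against 12.6%. The 4 nerve markers summed to 0.0411 to 0.0584% in CRC mice and 0.0658 to 0.0781% in healthy mice, and the 3 fibroblast markers to 0.546 to 0.748% in CRC mice and 0.534 to 0.662% in healthy mice, with none at 0. In edgeR 0 of the nerve and fibroblast markers passed, with 2 nerve markers and 1 fibroblast marker at an unadjusted p under 0.05. DESeq2 called 2 nerve markers, miR-124-3p and miR-7b-5p, and 1 fibroblast marker, miR-199b-5p. The part of these cell types in the result was not tested.

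**Figure D4:**
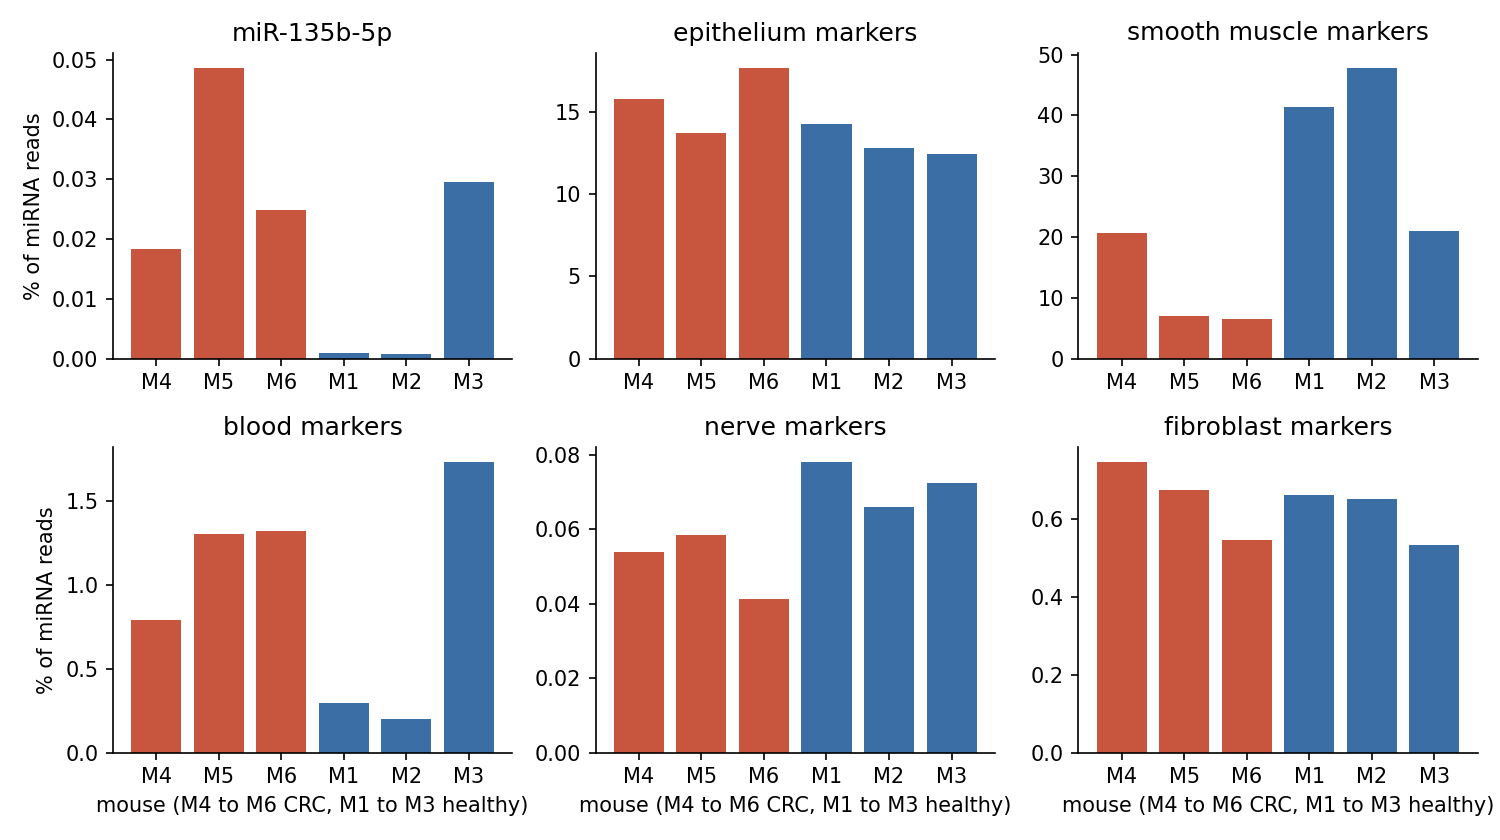
Share of miRNA reads, in percent, of miR-135b-5p and of the summed markers of 5 cell types in each mouse (bars, CRC red, healthy blue; each panel has its own axis from 0). Epithelium markers stayed between 12.4 and 17.7%, while smooth muscle markers were highest in M1 and M2 (41.4 and 47.9%) and blood markers lowest there (0.298 and 0.200%).

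Other miRNAs that have been described as repressors of APC in various cells gave no call in edgeR. Of 8 such miRNAs 0 passed, 2 were at an unadjusted p under 0.05, against 23.2% of all 878 miRNAs, and 3 had positive values, against 426 of 878. These 8 had a median log2 fold change of -0.39, against -0.03 over all 878. The 2 were miR-106b-5p with 1.02 (SE 0.44) and miR-494-3p with -1.92 (SE 0.68). DESeq2 called 1 of the 8, miR-494-3p, near its share over all miRNAs. Among the most abundant, miR-27a-3p had -0.48 (SE 0.35), miR-27b-3p -0.30 (SE 0.34) and miR-125b-5p -0.66 (SE 0.46). The leukocyte miRNA miR-142a-3p was also lowest in M1 and M2. It had 3179 CPM in M4, 4221 in M5 and 5358 in M6, against 903 CPM in M1, 535 in M2 and 9945 in M3. Its opposite arm miR-142a-5p was not lowest in both, with 630 CPM in M1 and 505 in M2 against 520 in M5. Of 4 described repressors of the beta-catenin gene, 0 passed in edgeR and 1 had a positive value. miR-145a-5p and miR-320-3p were at an unadjusted p under 0.05, and DESeq2 called miR-145a-5p. With 4 members these counts cannot be set apart from the shares over all miRNAs given above. miR-34a-5p had 0.34 (SE 0.40), miR-145a-5p -2.48 (SE 0.84), miR-200a-3p -0.67 (SE 0.33) and miR-320-3p -1.09 (SE 0.44). For miR-200a-3p and miR-320-3p every CRC mouse lay below every healthy mouse, as for 12.4% of all miRNAs tested.

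Among 18 measured miRNAs, the miR-135 family left out, that are known as high in colorectal tumours, 12 had positive values (426 of 878 over all miRNAs) and 0 passed in edgeR, with a median log2 fold change of 0.26. The 2 at an unadjusted p under 0.05 had opposite signs, miR-31-5p and miR-503-5p (-1.40, SE 0.57), and DESeq2 called 1 of the 18, miR-31-5p. Both counts lie below the shares over all miRNAs. The oncogenic miR-21a-5p had 0.23 (SE 0.29) and miR-203-3p 0.54 (SE 0.49). miR-20a-5p of the growth-promoting miR-17 cluster had 0.92 (SE 0.96). miR-31-5p had 3.22 with an SE of 1.27 (adjusted p = 0.169, edgeR). In it each CRC mouse exceeded all healthy mice, which held for 14.1% of all miRNAs tested. Only 3 of the miRNAs above were looked at without M3. Like miR-135b-5p, all 3 were far lower in M1 and M2 than in M3, so leaving out M3 favours a pass. All 3 passed edgeR there, in a fit that called 5.9% of 1068 miRNAs, which is no support for miR-135b-5p. They were miR-31-5p with 6.66 (SE 0.82), miR-20a-5p with 3.27 (SE 0.57) and miR-142a-3p with 2.47 (SE 0.44). These 3 were chosen after their values were seen.

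The miRNAs most like miR-135b-5p were ranked by Pearson's r of log2 CPM over the 6 profiles, among 303 miRNAs with at least 50 CPM in either group. The first was miR-31-3p, the opposite arm of miR-31-5p, with r = 0.987. It had 720 CPM in M4, 1131 in M5 and 588 in M6, against 3.69 CPM in M1, 4.27 in M2 and 397 in M3. It thus shared the low values of M1 and M2 and the high value of M3, although its M3 lay below every CRC mouse. Next came miR-1983 (0.980), miR-340-5p (0.976), miR-21a-3p, the opposite arm of miR-21a-5p (0.970), and miR-190a-5p (0.967). The lowest of the 303 was miR-345-5p (-0.997), which had 788 to 951 CPM in CRC mice and 1641, 1760 and 845 CPM in M1, M2 and M3. These values describe 6 profiles in which M1 and M2 lie together, and they are given with no test. The ranking was not repeated without M3, which would leave 5 profiles.

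**Figure D5:**
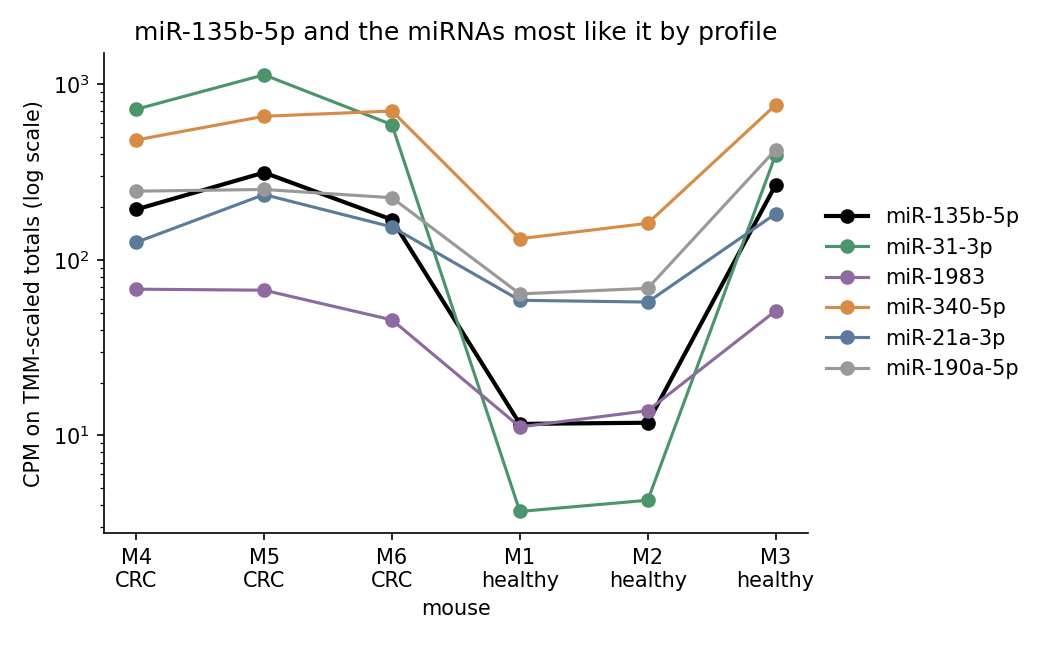
Levels in CPM on TMM-scaled totals (log axis) of miR-135b-5p (black) and of the 5 miRNAs with the highest correlation to it over the 6 profiles, by mouse. All 6 lines are lowest in the healthy mice M1 and M2, where miR-31-3p had 3.69 and 4.27 CPM.

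miR-135a-5p had other nearest profiles, with lower correlations: miR-186-5p (0.877), miR-324-5p (0.842), miR-130a-3p (0.832), miR-140-5p (0.824) and miR-497a-5p (0.785). Its own correlation with miR-135b-5p was 0.618 over the same 6 profiles. Within 100 kb of the hairpins lay 2 other miRNA genes. let-7g, 24627 bases from Mir135a-1 on the same strand, is a growth-restraining miRNA. let-7g-5p had 5218 ± 1981 CPM in CRC mice and 8169 ± 2449 CPM in healthy mice (SD, n = 3 each). Its log2 fold change was -0.65 with an SE of 0.41 (adjusted p = 0.357, edgeR). Its arm let-7g-3p had -0.84 with an SE of 0.46 (adjusted p = 0.297, edgeR). Mir1251, 64955 bases from Mir135a-2 on the same strand, gave under 1 CPM of either arm in every mouse. No miRNA gene lay that close to Mir135b.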

How the data were processed

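Per the labels' protocols, libraries of purified small RNA from colorectum were read on an Ion Proton. The authors aligned reads with BWA to mm10 (GRCm38), per the submitters' processing notes, and deposited raw counts (whole numbers) of 1915 mature miRNAs. Counting rules are not given in the sources used here. Mice are separate animals.

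All entries were fitted together in edgeR 4.0.16 (R 4.3.3), with TMM, filterByExpr by group (878 miRNAs kept), robust glmQLFit and glmQLFTest, two-sided, Benjamini-Hochberg adjustment at 0.05. SE is the log2 fold change divided by the square root of F. The scripts were tested on simulated data. DESeq2 1.42.0 and limma-voom (limma 3.58.1) were alternatives. Ratios took 0.5 added to each count and, like shares, exact permutation tests (SciPy 1.17.1). With totals as the only scaling, log2 fold changes were higher than with TMM (median shift 0.71), and directions are given on the TMM scale.

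The members, the lists and the named miRNAs (all members, the 5 most like each 5p member, neighbours within 100 kb, the 4 most abundant of each list) were chosen with earlier results of these data known. The genes named as targets were chosen from the literature after the counts had been seen. The fits of 3 other miRNAs without M3 and the removal of each profile's GC trend were added after seeing the data.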

Additional observations from a re-analysis of the deposited data

How the results depend on the processing

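With all mice, miR-135b-5p kept a positive log2 fold change under RLE, upper quartile and total-count scaling, no filter and a filter at 50 CPM. So it did in DESeq2, in limma-voom and with the GC trend removed. It was called in none, but DESeq2 gave it no p-value. The filter at 50 CPM called 0 of 322 miRNAs and limma-voom 0 of 878, so neither bears on the members. The others called 1.71% (GC trend removed) to 12.6% (DESeq2) of the miRNAs tested. With neighbouring mice as blocks miR-135b-5p was -0.47, the sum of both 5p members -0.44, miR-135a-5p -0.26 and miR-135b-3p -0.85. These are sizes only, from M4 against M3. Leaving out 1 mouse gave 0.69 to 4.17 for miR-135b-5p and 0.58 to 2.70 for the sum, both highest and called only without M3. The fits of single entries without M1, M5 or M6 called 0% of the miRNAs tested, so they do not bear on the members. Without M2 0.362% were called, without M4 19.9% and without M3 5.9%. Without M3 and M4 miR-135b-5p had 4.06 and the sum 2.57, both called. There the fit of single entries called 53.2% of the miRNAs tested. Calls in fits without M3 are no support for a difference, as stated above. miR-135a-5p, not called in any setting run, was -0.015 without a filter, -0.074 without M3 and M4, and -0.090 (without M2) to 0.18 (without M3) when 1 mouse was left out. The cause of these changes was not tested. Leaving out 1 mouse, the log2 ratio of the 5p members differed by 1.81 to 3.92, the summed share by 0.0122 to 0.0321 percentage points, and miR-135b-3p by 0.07 to 6.04 (highest without M3, adjusted p = 0.0557, edgeR, not called). With total counts alone miR-135a-5p had 0.65 (SE 0.58), and with the GC trend removed 0.27. The filter at 50 CPM left out miR-135a-5p and miR-135b-3p, and leaving out M3 and M4 left out miR-135b-3p. The alternatives for arm ratios were not run, since no 3p member reached 10 counts on average. No paired analysis was possible because the labels pair no mice. Depth limits the 3p arms, with 41 reads of miR-135b-3p in all.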
